A study of Arabidopsis thaliana with 8 samples.

Results

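The genes described here are the 145 cytochrome P450 genes of Arabidopsis that remained after the best-known groups were set aside. A gene was taken when the description deposited with the data placed it in a cytochrome P450 family, which held for 189 of the 25686 loci with reads. The CYP78A, CYP79, CYP83, CYP705A and CYP708A genes and 4 single loci, 44 genes in all, were left out. The working name of the set was P450 genes outside named pathways, but 45 of the 145 have a known place in a hormone, defence or structural pathway. They are therefore called the P450 set below, after the rule. It held 79 genes of clan 71, 26 of clan 86, 17 of clan 85, 16 of clan 72, 4 of clan 710 and 2 of clan 97, and CYP711A1 stands alone in its clan. Pseudogenes by name were 2 of the 145.

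Plant P450s are heme proteins, mostly anchored in the endoplasmic reticulum, that insert one oxygen atom into a small molecule. They draw electrons from NADPH:P450 reductases, and cytochrome b5 can assist. In roots and shoots members of the family make or break down hormones such as cytokinin, brassinosteroid, abscisate and jasmonate, and build lignin precursors, cutin, sterols and defence compounds. Many have no assigned substrate.

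RNA was sequenced along shoot regeneration in culture in the hag1 mutant and in the wild type Columbia-0 (Col). HAG1, also called AtGCN5, is a histone acetyltransferase. Both genotypes gave roots, root explants kept 4 days on the auxin-rich medium that induces callus (CIM), explants moved from CIM for 2 days to the cytokinin-rich medium that induces shoots (SIM), and explants after 2 weeks on SIM. There was 1 library per genotype and stage, 8 in all. The labels give neither the hag1 allele nor whether explants were pooled, and do not say that stages came from separate cultures.

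Depth ran from 6.96 to 7.54 in units of 1e+06 unique reads, so that 3 reads, the floor used for a locus without reads, stood for 0.398 to 0.431 counts per 1e+06 (CPM). HAG1 itself had 21, 8, 16 and 13 reads in hag1 roots, CIM, SIM 2 days and SIM 2 weeks, against 171, 204, 340 and 156 in Col. Markers of root hairs and endodermis were near 0 on CIM. The 5 root hair markers summed to 0.280 CPM in hag1 and 0.565 CPM in Col on CIM, with 3 and 2 of them at 0, against 321 and 429 CPM in roots. The 6 endodermis markers (the CASP genes and PER64) summed to 1.54 and 2.26 CPM on CIM, against 382 and 883 CPM in roots. The 5 green-tissue markers were at 671 CPM in hag1 and 1407 CPM in Col after 2 weeks on SIM, against 38.2 and 44.9 CPM after 2 days. In roots these green-tissue markers were at 232 CPM in hag1 and 204 CPM in Col. In whole explants, fewer cells of a type and less RNA per cell cannot be told apart.

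Taken as a sum, the P450 set held 0.275 to 0.396% of the unique reads of a library. In hag1 the summed level was 3689, 2906, 3814 and 3308 CPM in roots, on CIM, after 2 days and after 2 weeks on SIM. In Col the sums were 3963, 2751, 3367 and 3815 CPM. Both genotypes had their lowest sum on CIM. The 10 most abundant members carried 51.6 to 68.1% of each sum. Per length of transcript (RPKM, the mean over 8 libraries), CYP81F4 stood highest at 177 RPKM and CYP98A3 next at 165 RPKM. CYP81F4 modifies indole glucosinolates, and CYP98A3 hydroxylates coumaroyl shikimate on the way to lignin. Next in level were CYP72A7 at 113 RPKM, CYP72A15 at 77.4, CYP72A13 at 75.9, CYP77B1 at 72.3, CYP81D8 at 68.9 and CYP704A2 at 60.8 RPKM. At the other end 20 members had fewer than 10 reads in all libraries together, while 80 had reads in each of the 8.

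For stage differences common to both genotypes, the quasi-likelihood test of edgeR was run on a model of stage plus genotype, with adjustment over 18710 genes and a threshold of 0.05. Of the 145 members, 103 passed its filter on low counts. The other 42 had a median of 10 reads over the 8 libraries and at most 122 in one library (CYP710A4, Col root). Because the filter keeps a gene that is high in 1 stage only, counts below are given as descriptions of the tested members.

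On CIM, compared with roots, 16 members rose and 36 fell, and 51 of the 103 tested were not called. Among all genes tested 29.7% were called (12.7% rose and 17.0% fell). The median log2 change was -0.90 over the tested members and 0.01 over all genes. Of the tested members 48 had their highest mean level in roots, 14 on CIM, 13 after 2 days and 28 after 2 weeks on SIM. The same count was not made over all genes. Leaving out a root or CIM library lowered the number of calls over all genes too, although more genes were then tested. Without the Col CIM library 22 members were called, without Col root 28 and without hag1 root 34. Calls of 21 members held whichever single library was left out. Between the 2-day and 2-week stages of SIM, 15 members rose and 7 fell after 2 weeks, against 11.4% of all genes called (7.09% rose and 4.31% fell). This split was 8 and 7 with scaling to total counts, and 7 and 10 or 8 and 10 with limma on log2(RPKM + 1) or log2(RPKM + 0.1). It left 3 calls without the Col SIM 2 days library, 4 without Col SIM 2 weeks, 11 without hag1 SIM 2 days and 12 without hag1 SIM 2 weeks. Leaving out a SIM library left fewer late calls over all genes as well. Scaling to total counts moved the median of all genes by 0.15 (log2) for CIM against roots and by -0.20 for 2 weeks against 2 days on SIM.

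**Figure D1:**
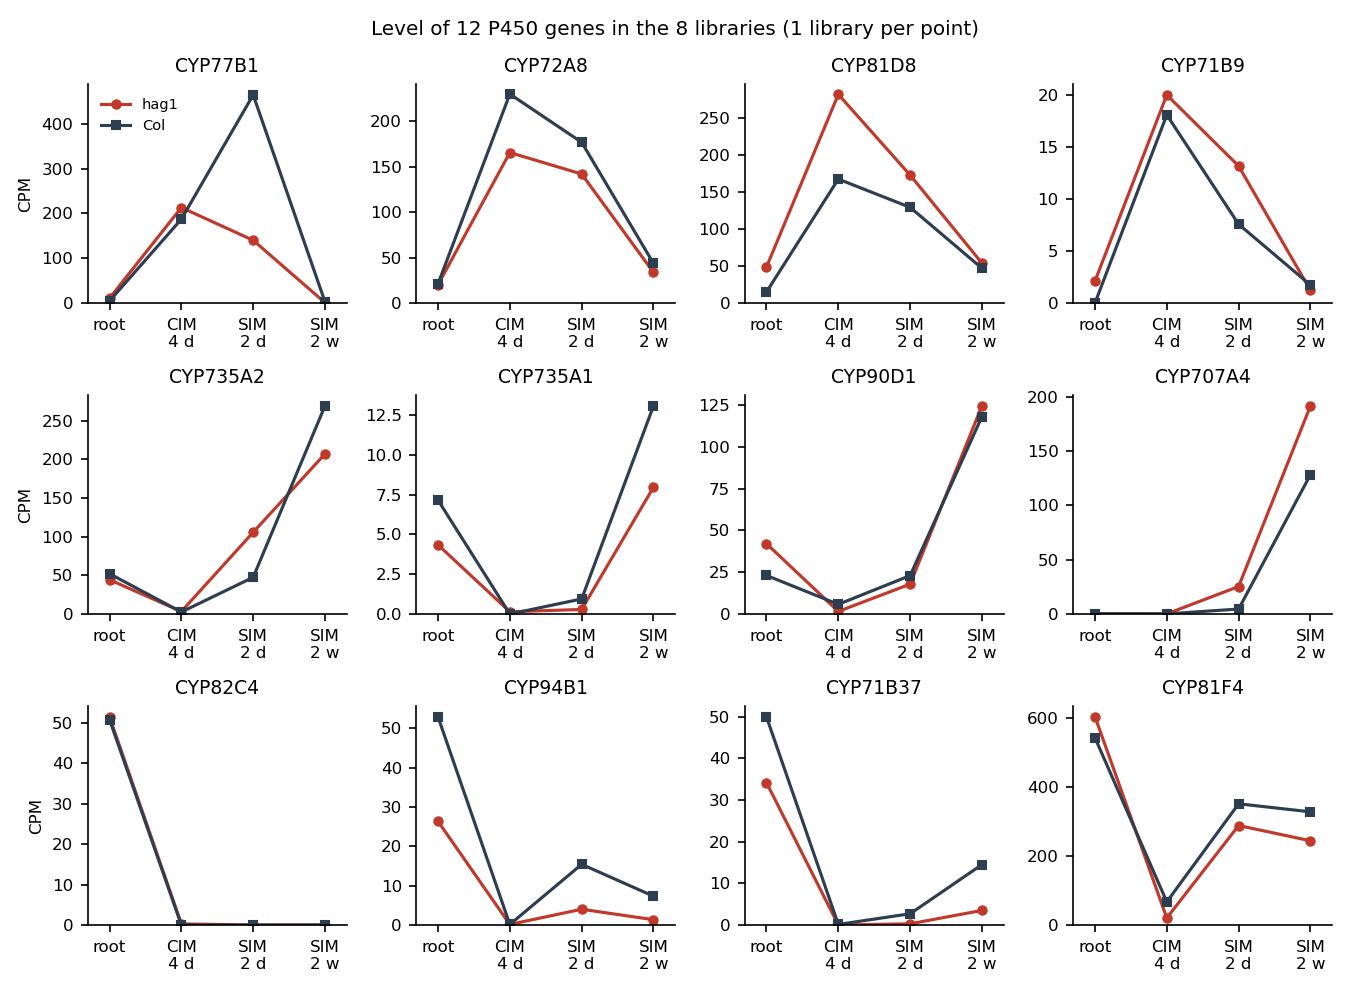
Level in CPM (y axis, linear, from 0) of 12 P450 genes at the 4 stages (x axis), with hag1 in red circles and Col in dark squares and 1 library per point. The top row is highest on CIM or after 2 days on SIM, the middle row lowest on CIM or nearly silent until SIM and highest after 2 weeks, and the bottom row highest in roots.

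The named genes followed different time courses, of which CYP77B1, CYP735A2, CYP707A4 and CYP82C4 are examples. CYP77B1 (AT1G11600, chromosome 1, 3902012 to 3903782, TAIR10), for which no role is listed here, was the member with the largest rise on CIM among those that kept their call without any one library. In hag1 it was at 10.7 CPM in roots, 213 on CIM, 140 after 2 days and 0.675 after 2 weeks on SIM. In Col it was at 4.64, 187, 465 and 2.44 CPM. Both CIM libraries lay far above both root libraries and both 2-week libraries. It rose on CIM by 4.56 on the log2 scale (SE 0.72, edgeR adjusted p = 0.00862) and fell by 7.33 (SE 0.86, edgeR adjusted p = 0.0101) between 2 days and 2 weeks on SIM.

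CYP735A2 (AT1G67110, chromosome 1, 25061731 to 25065446), one of the pair of enzymes that turn isopentenyladenine-type cytokinins into trans-zeatin types, had the opposite course. Its levels in hag1 were 44.3, 3.22, 106 and 207 CPM from roots to 2 weeks on SIM. In Col they were 52.1, 2.54, 47.5 and 269 CPM. CYP707A4 (AT3G19270, chromosome 3, 6673727 to 6676520), an abscisate hydroxylase that starts the breakdown of this hormone, was nearly silent before SIM. In hag1 it had 0.140, 0.140, 25.3 and 192 CPM and in Col 0.265, 0.141, 4.597 and 128 CPM. CYP82C4 (AT4G31940, chromosome 4, 15451988 to 15454160), which makes the iron-deficiency coumarin sideretin from fraxetin, was a root transcript in these libraries. It had 51.5 CPM in hag1 roots and 50.8 CPM in Col roots, 2 and 0 reads on CIM and no read in any of the 4 SIM libraries.

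The 250 bases upstream of these 4 genes are printed because the genes stand for 4 different time courses, a choice made after their values were seen. The letters are from the RefSeq TAIR10.1 genome, at the TAIR10 starts in the deposited descriptions, on the strand of the gene. Capitals mark matches on either strand to TGTCTC, the core bound by auxin response factors, or AGATT, the core bound by type-B cytokinin response regulators.
CYP77B1, chr1:3901762-3902011, plus strand: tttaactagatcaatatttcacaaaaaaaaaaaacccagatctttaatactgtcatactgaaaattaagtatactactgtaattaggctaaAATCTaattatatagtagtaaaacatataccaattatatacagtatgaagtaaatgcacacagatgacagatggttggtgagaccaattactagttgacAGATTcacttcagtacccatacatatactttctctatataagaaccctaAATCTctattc
CYP735A2, chr1:25065447-25065696, minus strand: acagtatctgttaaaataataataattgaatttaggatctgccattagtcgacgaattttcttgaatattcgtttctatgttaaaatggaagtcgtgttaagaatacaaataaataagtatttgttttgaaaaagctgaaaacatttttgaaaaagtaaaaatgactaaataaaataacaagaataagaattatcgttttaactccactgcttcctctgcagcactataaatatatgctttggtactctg
CYP707A4, chr3:6676521-6676770, minus strand: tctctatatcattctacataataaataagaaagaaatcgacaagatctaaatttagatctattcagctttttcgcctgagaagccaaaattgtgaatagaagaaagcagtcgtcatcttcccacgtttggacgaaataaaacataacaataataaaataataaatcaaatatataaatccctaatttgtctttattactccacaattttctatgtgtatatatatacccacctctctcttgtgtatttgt
CYP82C4, chr4:15451738-15451987, plus strand: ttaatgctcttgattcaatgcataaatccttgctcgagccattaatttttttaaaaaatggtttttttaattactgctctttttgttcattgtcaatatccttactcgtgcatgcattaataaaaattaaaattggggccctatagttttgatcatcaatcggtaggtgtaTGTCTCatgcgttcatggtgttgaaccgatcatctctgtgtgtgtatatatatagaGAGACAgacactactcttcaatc
The CYP77B1 window held 3 matches to AGATT and the CYP82C4 window 2 to TGTCTC, while the other windows held neither. In RefSeq the CYP77B1 gene starts at 3901950, inside this window, so not all of its matches lie upstream of that start. TGTCGG, the other auxin response core searched, was in none of the 4. An end base of AGATT and TGTCTC can be shared, and TGTCTC and TGTCGG cannot match at one position. Among 25535 loci the same window held TGTCTC in 12.5%, TGTCGG in 4.50% and AGATT in 63.1%. In the P450 set 24, 3 and 97 of 145 windows held them. Of the 36 members that fell on CIM 12 held TGTCTC, 1 TGTCGG and 21 AGATT, and of the 16 that rose 2, 0 and 9 did. These are counts of letters and were not tested.

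Both cytokinin hydroxylases fell on CIM and rose again late on SIM. CYP735A2 fell by 4.24 on CIM (log2, SE 0.50, edgeR adjusted p = 0.00404) and was 1.87 higher after 2 weeks than after 2 days on SIM (SE 0.42, edgeR adjusted p = 0.0437). The later call was lost without any one library other than hag1 SIM 2 days, with edgeR adjusted p up to 0.176 without Col SIM 2 weeks. CYP735A1 (AT5G38450) had 4.35, 0.140, 0.286 and 7.97 CPM in hag1 and 7.16, 0, 0.947 and 13.1 CPM in Col. With 1 read on CIM the hag1 ratio of CIM to root was 0.0315 (95% interval 0.000773 to 0.189), and in Col, with none, the CIM level was at least 20.5-fold lower, at an edgeR adjusted p of 0.00433. After 2 weeks it had 59 reads in hag1 and 91 in Col, against 2 and 7 after 2 days, ratios of 31.8 (95% interval 8.43 to 269) and 16.1 (7.48 to 41.1), and rose at an edgeR adjusted p of 0.0118. That call was lost without Col SIM 2 days (edgeR adjusted p = 0.0847) or Col SIM 2 weeks. Against roots, 2 weeks on SIM left CYP735A2 higher by 2.31 (SE 0.42, edgeR adjusted p = 0.0154) and CYP735A1 not called (0.88, SE 0.42, edgeR adjusted p = 0.164). The CYP735A2 call was lost without hag1 root (edgeR adjusted p = 0.0743), Col root or Col SIM 2 weeks.

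CYP90D1 (AT3G13730), which hydroxylates brassinosteroid precursors, was also called lower on CIM and higher late on SIM. It had 42.1, 1.54, 17.9 and 125 CPM in hag1 and 23.1, 5.79, 22.99 and 118 CPM in Col. The 2-week libraries lay above all others. It fell by 3.34 on CIM (SE 0.56, edgeR adjusted p = 0.00998) and was 2.79 higher after 2 weeks than after 2 days (SE 0.50, edgeR adjusted p = 0.0268). Leaving out any of the 4 SIM libraries ended the second call, with edgeR adjusted p up to 0.160 without Col SIM 2 days. The other member listed with brassinosteroids, CYP724A1, was too low to be tested. Of 4 other brassinosteroid and sterol synthesis genes 3 fell on CIM, namely DET2 by 1.57 (SE 0.19, edgeR adjusted p = 0.00451), STE1 by 1.12 and DWF1 by 1.02, and DWF5 was not called. Among all genes tested 17.0% fell on CIM. The DWF1 call was lost without 7 of the 8 libraries, the exception being Col SIM 2 weeks, and the STE1 call without either CIM library, with edgeR adjusted p up to 0.185 and 0.0879 without Col CIM.

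Among the 3 abscisate hydroxylases none was called on CIM, and CYP707A4 rose late. Its 2-week level exceeded the 2-day level by 3.94 (SE 0.53, edgeR adjusted p = 0.0142, and 0.0529 without Col SIM 2 weeks). From 1 root read in hag1 the ratio of 2 weeks to root was 1494 (95% interval 268 to 59047), and from 2 root reads in Col it was 454 (125 to 3758), at an edgeR adjusted p of 0.00385. CYP707A3 was lower after 2 weeks on SIM than in roots, at 0.811 CPM in hag1 and 0.719 CPM in Col, against 7.15 and 4.11 CPM in roots (log2 difference -2.80, SE 0.72, edgeR adjusted p = 0.0367). That call was lost without any of the 4 root and 2-week libraries (edgeR adjusted p up to 0.173 without hag1 SIM 2 weeks). CYP707A1 was at or below 2.78 CPM everywhere and was not called. NCED3, the dioxygenase that commits carotenoids to abscisate, had 2 and 8 reads after 2 weeks, against 21 and 226 after 2 days, in hag1 and Col. It fell at an edgeR adjusted p of 0.0411, a call lost without either 2-week library, either root library or Col SIM 2 days (edgeR adjusted p up to 0.242 without the last). ABA1 and ABA2 were not called in any stage comparison, and AAO3 was too low to be tested.

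Of the gibberellin genes, both CYP714A genes, which modify and inactivate gibberellins, fell on CIM. CYP714A1 had no read in either CIM library, against 26 reads in hag1 roots and 93 in Col roots, so it was at least 8.87-fold lower in hag1 and at least 35.4-fold lower in Col (edgeR adjusted p = 0.0170). This call was lost without Col CIM (edgeR adjusted p = 0.0915) or Col root. CYP714A2 had 1 and 6 reads on CIM, against 19 and 32 in roots, in hag1 and Col (edgeR adjusted p = 0.0368), a call that 6 of the 8 single-library omissions ended, all but those of the 2-week libraries (edgeR adjusted p up to 0.189 without Col CIM). CYP88A3, the ent-kaurenoic acid oxidase of gibberellin synthesis, ranged from 17.8 to 22.3 CPM in hag1 and from 9.68 to 24.4 CPM in Col and was not called. CYP72A9 was too low to be tested. CYP711A1 (MAX1 of strigolactone synthesis) stayed between 0.699 and 4.05 CPM and was not called.

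The jasmonate genes were highest in roots, apart from CYP94C1 in hag1. CYP94B1, CYP94B3 and CYP94C1 oxidise jasmonoyl-isoleucine, the active hormone. CYP94B1 (AT5G63450) had 26.4, 0.140, 4.01 and 1.35 CPM in hag1 and 52.9, 0.141, 15.4 and 7.33 CPM in Col. Only 1 read remained in each CIM library, which gave CIM-to-root ratios of 0.00520 (95% interval 0.000131 to 0.0293) in hag1 and 0.00220 (5.54e-05 to 0.0123) in Col, at an edgeR adjusted p of 0.00124. CYP94B3 (AT3G48520) had 190, 61.8, 8.59 and 17.4 CPM in hag1 and 361, 31.9, 64.0 and 10.2 CPM in Col. Its log2 change on CIM of -2.56 (SE 0.93, edgeR adjusted p = 0.0861) was not called, and after 2 weeks on SIM it was lower than in roots by a log2 difference of -4.18 (SE 1.00, edgeR adjusted p = 0.0306). That second call was lost without any root or 2-week library (edgeR adjusted p up to 0.127 without Col SIM 2 weeks). CYP94C1 ranged from 15.2 to 22.9 CPM in hag1 and from 8.34 to 32.7 CPM in Col and was not called.

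The 6 genes of indole defence did not move together: 2 rose and 2 fell on CIM, where 12.7% and 17.0% of all genes tested did. CYP71A12 and CYP71A13 turn indole-3-acetaldoxime into the nitrile used for camalexin. CYP71A13 had 0.701, 15.9, 14.03 and 1.08 CPM in hag1 and 1.06, 22.6, 11.6 and 6.75 CPM in Col, and rose by 4.28 on CIM (SE 0.74, edgeR adjusted p = 0.0110). The call was lost without Col root (edgeR adjusted p = 0.0768) or hag1 root. Its close relative CYP71A12 had 82.6, 35.9, 84.01 and 6.48 CPM in hag1 and 105, 38.0, 22.6 and 18.7 CPM in Col and was not called on CIM. As the sequences are alike, reads that fit both may be missing from both counts. CYP81F4 (AT4G37410) fell to 20.3 CPM in hag1 and 67.1 CPM in Col on CIM, against 603 and 541 CPM in roots (log2 difference -4.02, SE 0.44, edgeR adjusted p = 0.00337). After 2 weeks it was at 244 CPM in hag1 and 327 CPM in Col. CYP91A2, also listed as CYP81F1 and likewise an indole glucosinolate enzyme, rose by 2.21 on CIM (SE 0.30, edgeR adjusted p = 0.00562), to 21.7 CPM in hag1 and 51.7 CPM in Col. CYP81F3 was not called. CYP82C2, which hydroxylates an indole cyanogen, had 0.420 and 0.141 CPM on CIM, against 12.8 and 12.9 CPM in roots, in hag1 and Col. It fell at an edgeR adjusted p of 0.00805, and of 0.0570 without Col CIM.

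CYP82C4, the sideretin enzyme, fell on CIM at an edgeR adjusted p of 0.00570. Its CIM-to-root ratio in hag1 was 0.00532 (95% interval 0.000642 to 0.0194), and in Col, without a read, it was at least 146-fold lower. After 2 weeks on SIM it was at least 116-fold lower than in roots in hag1 and at least 125-fold lower in Col (edgeR adjusted p = 0.00793). Both calls held without any one library, but not in the DESeq2 Wald test (DESeq2 adjusted p = 0.130 and 0.0674). Root hair and endodermis markers went down with CYP82C4, CYP94B1 and the other root-high members, as given above, and the part of these cell types in the falls was not tested.

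CYP98A3, the lignin-path hydroxylase, had 185, 192, 517 and 510 CPM in hag1 and 264, 171, 184 and 466 CPM in Col. Neither CIM (log2 difference -0.53, SE 0.49) nor the late stage of SIM (0.74, SE 0.49) gave a call. Of 5 other phenylpropanoid genes 2 rose between 2 days and 2 weeks on SIM, where 7.09% of all genes tested rose. COMT1, a methyltransferase of lignin precursors, rose by 1.97 (SE 0.34, edgeR adjusted p = 0.0250), and PAL2, a phenylalanine ammonia-lyase, by 1.63 (SE 0.37, edgeR adjusted p = 0.0451). The COMT1 call was lost without hag1 SIM 2 weeks or either Col SIM library (edgeR adjusted p up to 0.151 without Col SIM 2 days). The PAL2 call was lost without either CIM library, hag1 SIM 2 weeks or either Col SIM library (edgeR adjusted p up to 0.221 without Col SIM 2 days). CYP98A8, which acts on pollen phenolamides, rose on CIM by 1.58 from a low level (SE 0.44, edgeR adjusted p = 0.0425), a call that held only without hag1 root (edgeR adjusted p up to 0.198 without Col CIM). CYP98A9 was not called. Against roots, 4CL1, HCT and COMT1 were higher after 2 weeks on SIM, where 11.9% of all genes tested rose. The COMT1 difference from roots was 2.36 (SE 0.35, edgeR adjusted p = 0.00990). It held without any one library, and those of 4CL1 and HCT did not. PAL2 had fallen on CIM by 1.96 (SE 0.37, edgeR adjusted p = 0.0142), a call lost without either CIM library or Col root. It was not called at 2 weeks against roots.

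Sterol desaturases of the CYP710A group, which make stigmasterol-type sterols, were root-high. CYP710A1 had 66.9, 40.7, 15.7 and 3.92 CPM in hag1 and 158, 27.5, 19.5 and 6.47 CPM in Col. It was lower after 2 weeks on SIM than in roots by a log2 difference of -4.40 (SE 0.54, edgeR adjusted p = 0.00669), and on CIM by -1.77 (SE 0.48, edgeR adjusted p = 0.0390). The CIM call was lost without either SIM 2 days library, hag1 SIM 2 weeks, Col root or Col CIM (edgeR adjusted p up to 0.175 without the last). CYP710A2 had 22.7, 0.140, 1.86 and 4.998 CPM in hag1 and 46.4, 1.69, 6.22 and 34.5 CPM in Col, and fell on CIM to 1 read in hag1 and 12 in Col, ratios of 0.00603 (95% interval 0.000152 to 0.0341) and 0.0300 (0.0154 to 0.0531). That call (edgeR adjusted p = 0.00282) held without any one library. CYP710A3 and CYP710A4 were not tested, and 122 of the 133 reads of CYP710A4 came from the Col root library.

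Other groups with known roles showed few calls. Of the carotene hydroxylases CYP97B3 fell by 1.06 on CIM (SE 0.21, edgeR adjusted p = 0.0150, lost without hag1 root or either CIM library, up to 0.103 without hag1 CIM), and CYP97A3 was not called. Among terpenoid genes CYP76C2 had 0.561, 10.6, 11.4 and 1.22 CPM in hag1 and 0.265, 3.25, 3.11 and 0.719 CPM in Col. From 4 and 2 root reads it rose on CIM 18.6-fold in hag1 (95% interval 6.96 to 69.9) and 10.07-fold in Col (2.49 to 88.2, edgeR adjusted p = 0.00481) and fell by 2.56 between 2 days and 2 weeks on SIM (SE 0.43, edgeR adjusted p = 0.0233). Leaving out any of the 4 SIM libraries ended the later call (edgeR adjusted p up to 0.131 without hag1 SIM 2 weeks). CYP716A1 and CYP716A2 were not called and CYP76C1 was not tested. Of 6 genes of cutin, wax and fatty acid hydroxylation 4 were tested and none was called on CIM or later. The edgeR unadjusted p was below 0.05 for 0 of the 4 on CIM against roots, for 2 at 2 weeks against 2 days on SIM and for 3 at 2 weeks against roots, where 43.8, 30.8 and 42.4% of all genes had such a p. CYP703A2 and CYP704B1 of the pollen wall had 1 to 5 reads in all and were not tested. CYP89A9, which oxidises chlorophyll breakdown products, had 39.4 CPM in hag1 and 50.3 CPM in Col after 2 weeks, against 16.3 and 10.14 CPM after 2 days, and was not called (log2 difference 1.89, SE 0.49, edgeR adjusted p = 0.0610).

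Of the 100 members without a listed role 68 were tested, and on CIM 12 rose and 24 fell. Of all genes tested 12.7% rose and 17.0% fell there. CYP72A8 (AT3G14620) had similar levels in both genotypes. It had 20.05, 165, 142 and 33.6 CPM in hag1 and 21.1, 230, 177 and 43.5 CPM in Col. It rose by 3.09 on CIM (SE 0.15, edgeR adjusted p = 0.000763) and fell by 1.84 between 2 days and 2 weeks on SIM (SE 0.15, edgeR adjusted p = 0.00516). With CYP77B1 it was one of the 2 members whose late call held without any one library. CYP81D8 (AT4G37370), a gene known to be induced by xenobiotics, had 48.6, 282, 173 and 53.9 CPM in hag1 and 14.98, 168, 129 and 47.0 CPM in Col, and rose by 2.79 on CIM (SE 0.33, edgeR adjusted p = 0.00397). CYP71B9 and CYP709B2 rose by 4.23 (SE 0.90, edgeR adjusted p = 0.0195) and 3.36 (SE 0.75, edgeR adjusted p = 0.0231). Those calls were less stable. CYP71B9 was lost without either CIM library (edgeR adjusted p up to 0.0765 without Col CIM), and CYP709B2 without any root or CIM library (edgeR adjusted p up to 0.110 without hag1 root).

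Among members without a listed role, several fell to a handful of reads on CIM, and 3 of them are described here. CYP71B37 (AT3G26330) had 34.2 CPM in hag1 roots and 49.97 CPM in Col roots, and 0 and 1 reads on CIM. It was at least 83.3-fold lower on CIM in hag1, and the Col ratio was 0.00232 (95% interval 5.87e-05 to 0.0130, edgeR adjusted p = 0.00202). CYP71A19 had 0 and 8 reads on CIM, against 784 and 537 in roots (at least 267-fold lower in hag1, a ratio of 0.0131 in Col with 95% interval 0.00561 to 0.0259, edgeR adjusted p = 0.00739). CYP71B34 had 0 and 1 reads, against 123 and 247 (at least 42.0-fold lower in hag1, a ratio of 0.00355 in Col with 95% interval 8.94e-05 to 0.0199, edgeR adjusted p = 0.00470). All 3 calls held without any one library. So did the CIM falls of CYP706A7, CYP709B3 and CYP82F1, which had 1 to 5 reads in each CIM library. After 2 weeks on SIM CYP71B37, CYP71A19 and CYP71B34 were at 3.51, 2.43 and 0.405 CPM in hag1 and at 14.5, 11.9 and 7.62 CPM in Col.

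**Figure D2:**
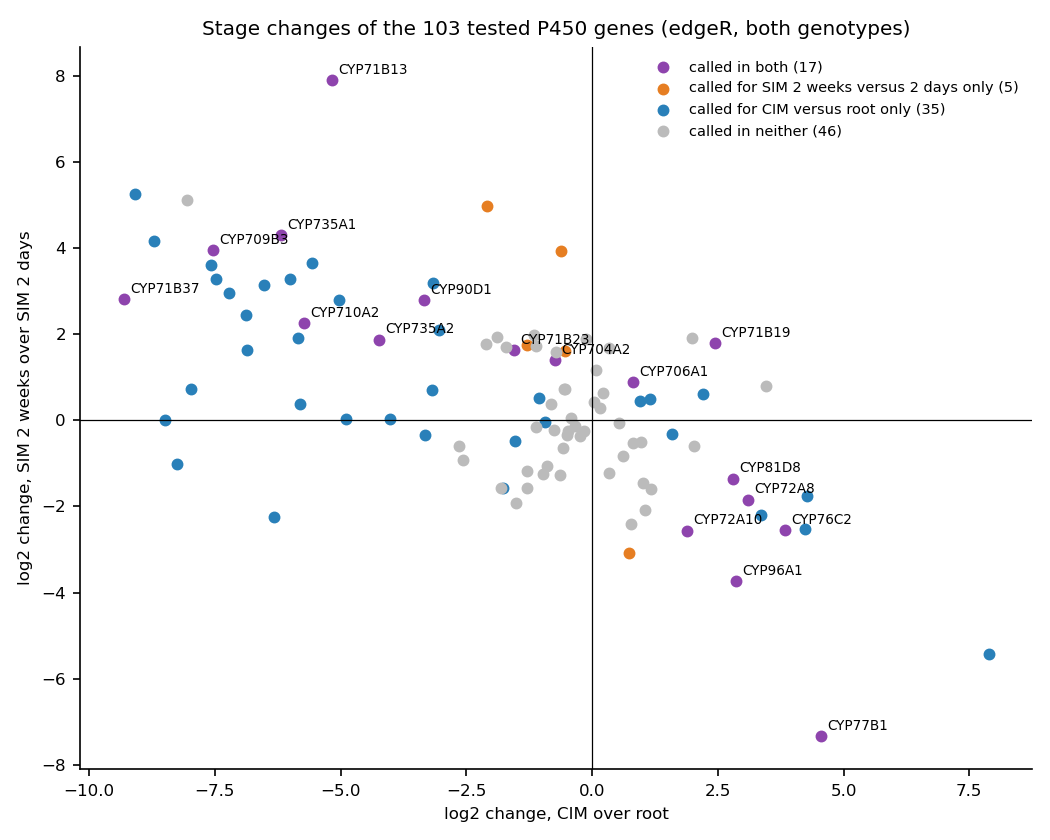
edgeR log2 change of each tested P450 gene on CIM over root (x axis) and after 2 weeks over 2 days on SIM (y axis), with colour marking the comparisons in which a gene was called. Among the genes called in both comparisons, the 6 that rose and then fell, such as CYP77B1, lie in the lower right quadrant. The 9 that fell and then rose, such as CYP735A1, lie in the upper left. Both quadrants also hold genes not called in both.

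The comparisons of CIM with roots and of 2 weeks with 2 days on SIM share no library. Of the 16 members that rose on CIM 6 fell late on SIM (37.5% of them, and 85.7% of the 7 that fell late), namely CYP72A8, CYP72A10, CYP76C2, CYP77B1, CYP81D8 and CYP96A1. Of the 36 that fell on CIM 9 rose late (25% of them, and 60.0% of the 15 that rose late), namely CYP704A2, CYP709B3, CYP710A2, CYP71B13, CYP71B23, CYP71B37, CYP735A1, CYP735A2 and CYP90D1. Reversals were common among all genes tested too: of those that rose on CIM 19.8% fell late (58.4% of the late falls), and of those that fell on CIM 21.6% rose late (51.8% of the late rises). Whether the P450 set differed from them was not tested. CYP706A1 and CYP71B19 rose in both. As given above, the late calls that held without any one library were those of CYP77B1 and CYP72A8. The late rises also included CYP706A5, at 2.57 CPM in hag1 and 12.6 CPM in Col after 2 weeks, against 0 and 0.541 CPM after 2 days (edgeR adjusted p = 0.0231). Its call was lost without any SIM library (edgeR adjusted p up to 0.154 without Col SIM 2 days). The late falls included CYP87A2, by 3.08 (SE 0.59, edgeR adjusted p = 0.0300), and CYP96A1, with 0 and 4 reads after 2 weeks. The CYP87A2 call was lost without hag1 CIM, either 2-week library or Col SIM 2 days, and the CYP96A1 call without any SIM library, with edgeR adjusted p up to 0.164 and 0.172.

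Between CIM and 2 days on SIM edgeR called no member, against 0.0695% of all genes (0.0641% rose and 0.00534% fell). The edgeR unadjusted p was below 0.05 for 18 of the 103, and for 10.6% of all genes tested. DESeq2 called 9 members, and 537 of 18710 genes. Without the low-count filter edgeR called 6 members, and 72 of 25686 genes. With limma 1 member was called at either pseudocount, and 18 or 46 of 18710 genes with a pseudocount of 1 or 0.1. The lowest p values, picked after they were seen, belonged to CYP94B1 (edgeR adjusted p = 0.0626), CYP735A2 with a log2 difference of 4.67 (SE 0.50, edgeR adjusted p = 0.0674) and CYP706A1 with 1.35 (SE 0.16, edgeR adjusted p = 0.0794). All 3 lay higher after 2 days, and CYP94B1 had 28 reads in hag1 and 114 in Col, against 1 and 1 on CIM.

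After 2 weeks on SIM, compared with roots, 12 members rose and 28 fell, where 26.8% of all genes were called (11.9% rose and 14.9% fell). This comparison shares the root libraries with that of CIM and the 2-week libraries with that of late SIM. CYP706A1 (AT4G22690) climbed through all stages, with 42.8, 82.2, 200 and 300 CPM in hag1 and 23.1, 45.1, 127 and 215 CPM in Col. Its 2-week level exceeded the root level by 3.04 (SE 0.17, edgeR adjusted p = 0.00237). CYP71B19 likewise went up, to 15.7 CPM in hag1 and 10.5 CPM in Col after 2 weeks, against 0.421 and 0.398 CPM in roots. From 3 root reads each, the ratios were 40.7 (95% interval 13.6 to 200.3) in hag1 and 24.8 (8.15 to 123) in Col, at an edgeR adjusted p of 0.00550. Both calls held without any one library, as did those of CYP707A4, CYP710A1, CYP72A7, CYP82C4, CYP86C2 and CYP94B1. Leaving out a root or 2-week library lowered the number of calls over all genes too. In all 13 members were called without the Col root library, 14 without hag1 SIM 2 weeks, 19 without hag1 root and 24 without Col SIM 2 weeks. Further falls were those of CYP71A27, by 4.36 (SE 1.12, edgeR adjusted p = 0.0370), and of CYP81D3, with 0 and 7 reads in hag1 and Col after 2 weeks and 91 and 132 in roots (edgeR adjusted p = 0.0126). The CYP71A27 call was lost without either root library, either SIM 2 days library or hag1 SIM 2 weeks, and the CYP81D3 call without either root library, with edgeR adjusted p up to 0.156 and 0.0659 without Col root. CYP702A2 had no read in either 2-week library, so it was at least 8.87-fold lower in hag1 and at least 22.9-fold lower in Col (edgeR adjusted p = 0.0156, and 0.111 without Col root; also lost without Col SIM 2 weeks).

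Neighbouring P450 genes were called in the same direction in some pairs and in opposite directions in others. With at most 1 gene between neighbours, 81 members lay in 25 clusters of up to 8 genes. Over the stage comparisons both genes of a pair within a cluster were called in the same direction 21 times and in opposite directions 12 times, on CIM 13 and 5 times. The comparisons share libraries, and a pair can count more than once. No such count was made for other pairs of called members or for neighbouring genes at large. Whether neighbours moved together more often than other pairs was not tested. Pairs that fell together on CIM included CYP710A1 and CYP710A2, CYP82C2 and CYP82C4, CYP714A1 and CYP714A2, and CYP71B34 and CYP71B37. The opposite pairs are named next. On chromosome 3 (4912466 to 4939465) the 8 CYP72A genes run from CYP72A7 to CYP72A15. There CYP72A7 and CYP72A8 rose and CYP72A13 fell in 2-week SIM explants against roots. CYP72A7 was at 306 CPM in hag1 and 229 CPM in Col after 2 weeks, against 118 and 72.4 CPM in roots. CYP72A13 was at 75.5 and 98.7 CPM, against 287 and 194 CPM. Late on SIM CYP72A8 and CYP72A10 fell and CYP72A11 rose. In the CYP71B cluster CYP71B19 rose and CYP71B23 fell on CIM, and CYP71B23 was at 21.1 CPM in hag1 and 28.5 CPM in Col, against 63.5 and 65.6 CPM in roots. In the 2-week against root comparison CYP71B19 and CYP71B20 rose and CYP71B23 fell. CYP706A4 rose and CYP706A7 fell in both comparisons with roots. On chromosome 4 CYP81D8 rose on CIM while CYP81H1, CYP81D4 and CYP81D3 fell. CYP81H1 was at 2.94 CPM in hag1 and 2.54 CPM in Col on CIM, against 25.7 and 15.9 CPM in roots. Unique reads of close copies are uncertain counts, and many of these calls rested on particular libraries. Late on SIM CYP72A10 and CYP72A11 were lost without any SIM library (edgeR adjusted p up to 0.155 and 0.210). On CIM CYP71B19 was lost without either root library or Col CIM (edgeR adjusted p up to 0.126), CYP706A4 without any library other than the SIM 2 days ones (up to 0.243), CYP81H1 without either CIM library or Col root (up to 0.0758), CYP81D4 without any root or CIM library (up to 0.119) and CYP81D3 without Col CIM (0.0560). At 2 weeks against roots CYP72A8 was lost without either 2-week library or Col root (edgeR adjusted p up to 0.0682), and CYP72A13 without either root library or hag1 SIM 2 weeks (up to 0.142). There CYP706A4 was lost without either 2-week library or hag1 root (edgeR adjusted p up to 0.0732), CYP71B20 without any root or 2-week library (up to 0.109) and CYP71B23 without any one of the 8 (up to 0.245), and CYP706A7 without Col root (0.0523).

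**Figure D3:**
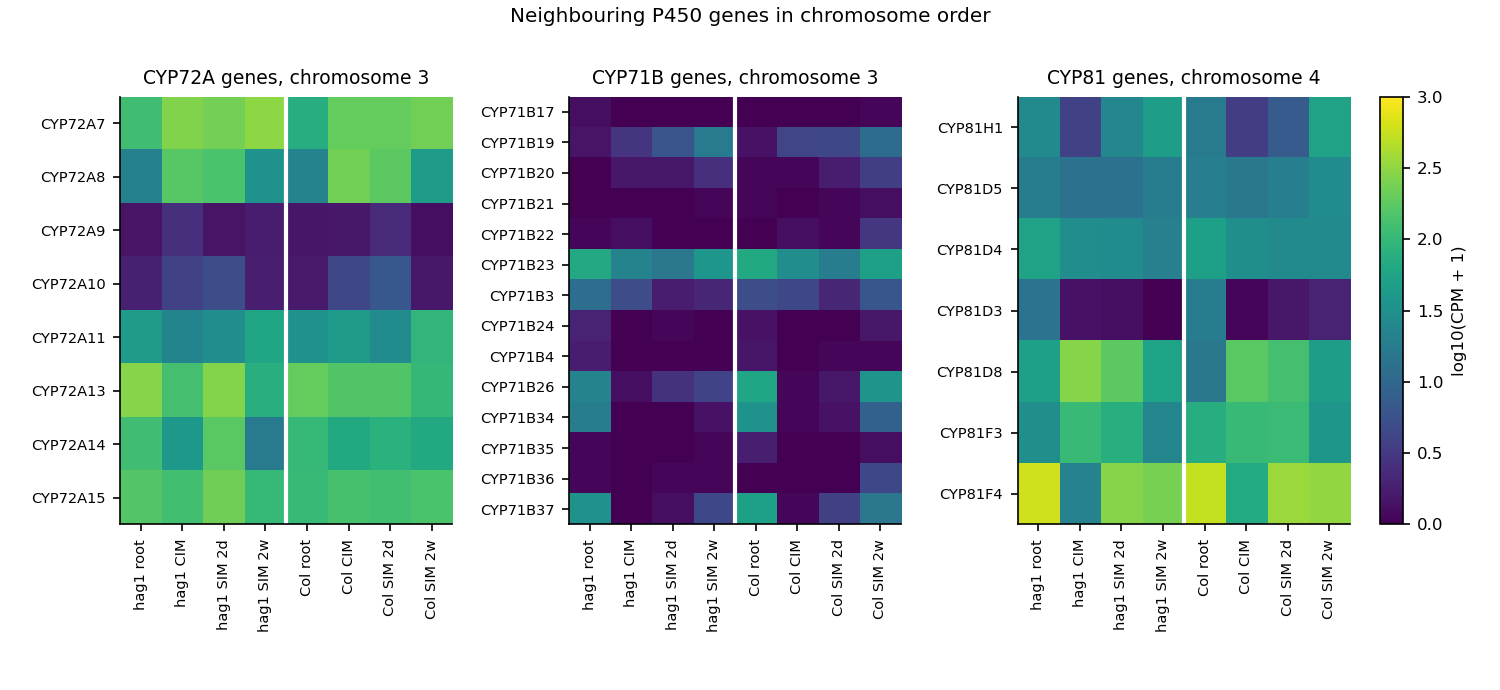
log10(CPM + 1) (colour, 0 to 3) of P450 genes in chromosome order (rows, top to bottom) in the 8 libraries (columns, hag1 left of the white line and Col right of it). CYP72A8 and CYP81D8 are brightest on CIM while CYP81D3, next to CYP81D8 in the panel, is dark outside the root.

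Averaged over stages, no member was called between hag1 and Col by edgeR, against 0.433% of all genes (0.241% higher and 0.192% lower in hag1). The edgeR unadjusted p was below 0.05 for 26 of 103 members and 20.6% of all genes. DESeq2 called 13 members (3 higher and 10 lower in hag1), and 1205 of 18710 genes. Without the low-count filter edgeR called 1 member, and 222 of 25686 genes. With limma no member was called, and 2 or 14 of 18710 genes with a pseudocount of 1 or 0.1. The lowest p values, again picked after they were seen, were those of CYP71B13 (3, 0, 0 and 4 reads along the stages in hag1 and 74, 2, 0 and 45 in Col, edgeR adjusted p = 0.0593), CYP706A1 with a log2 difference of 0.76 (SE 0.12, edgeR adjusted p = 0.0635), CYP706A7 with -2.72 (SE 0.47, edgeR adjusted p = 0.0767), CYP94B1 with -1.63 (SE 0.29, edgeR adjusted p = 0.0798) and CYP710A2 with -1.93 (SE 0.35, edgeR adjusted p = 0.0807). CYP706A1 was higher in hag1 at all 4 stages. A test of whether the hag1 effect in explants differed from that in roots called none of 115 members and 0.0% of all genes, with an unadjusted edgeR p below 0.05 for 8 members and 8.01% of all genes. DESeq2 and limma called no member there either. Over all genes DESeq2 called 38 of 19733 and limma none. This model has 2 residual degrees of freedom and 1 library per group, so a count of 0 does not show that the hag1 effect was alike in explants and roots.

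Within a stage hag1 and Col can be compared only as 1 library each, so the ratios have no replicate check, and their 95% intervals cover counting error only. Ratios are given for members that reached 50 reads in one of the libraries, and 2-fold apart is a size, not a test. In roots 74 members qualified, and 3 were higher and 23 lower in hag1, with 12.2% of all genes 2-fold apart (4.39% higher and 7.83% lower). On CIM 4 were higher and 7 lower of 48 (12.6% of all genes, 5.01% higher and 7.64% lower). After 2 days on SIM 11 were higher and 8 lower of 54 (15.1% of all genes, 5.48% higher and 9.61% lower). After 2 weeks none was higher and 22 were lower of 60 (14.2% of all genes, 2.6% higher and 11.6% lower). With at least 100 reads in one of the libraries, 16 of 54 members were 2-fold apart in roots (1 higher and 15 lower), 4 of 39 on CIM (2 and 2), 14 of 43 after 2 days (9 and 5) and 9 of 45 after 2 weeks (0 and 9). The share of all genes was not counted at 100 reads, so these counts have no background beside them. The members' median log2 ratios at 50 reads were -0.31, -0.02, 0.20 and -0.40 along the stages, and those of all genes lay between -0.05 and 0.04.

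**Figure D4:**
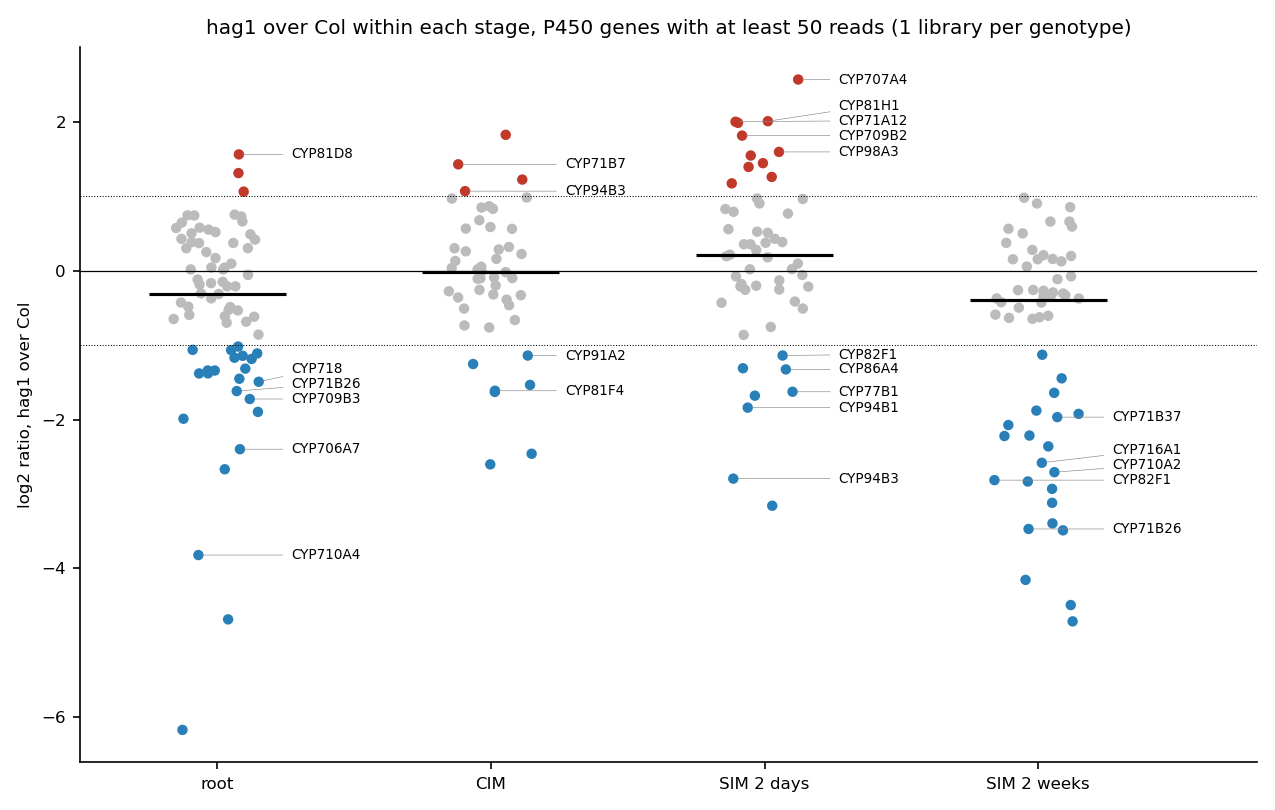
log2 ratio of hag1 over Col (y axis) within each stage (x axis) for P450 genes that reached 50 reads in hag1 or Col, 1 library per genotype. Red points are at least 2-fold higher and blue points at least 2-fold lower in hag1, dotted lines mark 2-fold and black bars the medians; after 2 weeks on SIM 22 points are blue and none is red.

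In roots CYP81D8 was higher in hag1 (347 reads in hag1 and 113 in Col, log2 ratio 1.56, interval 1.25 to 1.88). Lower were CYP710A4 (9 and 122 reads, -3.82, interval -4.98 to -2.85), CYP706A7 (97 and 491 reads, -2.40), CYP709B3 (87 and 276 reads, -1.72), CYP71B26 (151 and 445 reads, -1.62) and CYP718 (47 and 127 reads, -1.49). On CIM CYP71B7 (1.43) and CYP94B3 (1.07) were higher in hag1 and CYP81F4 (-1.61) and CYP91A2 (-1.14) lower. After 2 days on SIM the abscisate hydroxylase CYP707A4 had 177 reads in hag1 and 34 in Col (log2 ratio 2.57, interval 2.03 to 3.14). CYP98A3 had 3612 reads in hag1 and 1361 in Col (1.59, interval 1.503 to 1.68). CYP81H1 (2.01), CYP71A12 (2.00) and CYP709B2 (1.81) were also higher. CYP94B3 had 60 reads in hag1 and 473 in Col (-2.79, interval -3.21 to -2.40), and CYP94B1 (-1.84), CYP77B1 (-1.63), CYP86A4 (-1.33) and CYP82F1 (-1.14) were lower as well. The cytokinin hydroxylase CYP735A2 had 738 reads in hag1 and 351 in Col at this stage (1.26, interval 1.07 to 1.44).

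After 2 weeks on SIM several members were far lower in hag1. CYP71B26 had 22 reads in hag1 and 242 in Col (log2 ratio -3.47, interval -4.17 to -2.84), and CYP82F1 117 and 817 reads (-2.81, interval -3.11 to -2.53). CYP710A2 (-2.71), CYP716A1 (-2.58) and CYP71B37 (-1.97) followed. The markers of root and green tissue were lower in hag1 at this stage as well. The endodermis markers summed to 8.78 CPM in hag1 and 81.2 CPM in Col, root hair markers to 34.3 and 97 CPM, xylem markers to 8.11 and 35.2 CPM and green-tissue markers to 671 and 1407 CPM. In roots the endodermis markers summed to 382 CPM in hag1 and 883 CPM in Col. The 4 shoot meristem and boundary genes measured (STM, WUS, CUC1 and CUC2) summed to 25.7 CPM in hag1 and 17.0 CPM in Col after 2 weeks. CUC2 (121 reads in hag1 and 52 in Col) and CUC1 (41 and 21) lay above Col in hag1, and STM (15 and 29) and WUS (13 and 16) below it. The part of tissue make-up in the ratios was not tested.

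Of 9 genes for the electron donors and partners of the P450s 4 were called on CIM and none later. Among all genes tested 29.7% were called on CIM, 11.4% late on SIM and 26.8% at 2 weeks against roots. The 9 genes (the reductases ATR1 and ATR2, the cytochrome b5 genes CB5-A to CB5-E, and the scaffold proteins MSBP1 and MSBP2) summed to 995, 1075, 1253 and 1200 CPM in hag1 and to 1058, 906, 950 and 1078 CPM in Col. On CIM CB5-C fell by 1.99 (SE 0.27, edgeR adjusted p = 0.00570), CB5-D fell by 0.82 (SE 0.19, edgeR adjusted p = 0.0248), MSBP2 fell by 0.82 (SE 0.22, edgeR adjusted p = 0.0398) and CB5-A rose by 0.81 (SE 0.20, edgeR adjusted p = 0.0324). Only the CB5-C call held without any one library. CB5-D was lost without either CIM library or Col root, MSBP2 without either CIM library, either 2-week library or Col root, and CB5-A without hag1 root or any CIM or SIM 2 days library, each with its highest edgeR adjusted p, 0.185, 0.198 and 0.175, without Col CIM. Between genotypes edgeR called none of the 9.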

How the data were processed

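RNA was measured in 8 libraries, 1 for hag1 and 1 for Col at each of 4 stages. Per the file headers the deposited tables list unscaled counts, which are unique reads for every transcript model. The deposited RPKM divides these counts by model length and library total, which was checked on each file. A deposited coverage column, the percent of each model covered per the file headers, was not used. The submitters' processing notes name TAIR 10. For the aligner, the counter and the use of strand, nothing is given in the sources used here.

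Counts were summed per locus, scaled with TMM and filtered with filterByExpr, and fitted in edgeR 4.0.16 (R 4.3.3) on all 8 libraries with additive stage and genotype terms, leaving 3 residual degrees of freedom. Genotypes thus stand in for replicates of a stage and stages for replicates of a genotype, so a p-value reflects the spread of these libraries alone, which may be technical. A hag1 effect that varies by stage also enters that spread. P values were adjusted by Benjamini-Hochberg over all genes tested. A further model, with 2 residual degrees of freedom and 19733 genes, tested the hag1 effect in explants minus that in roots. Within a stage, TMM-scaled ratios carry exact 95% Clopper-Pearson intervals for counting error. Loci without reads were bounded with 3 reads per library. Alternatives were DESeq2 1.42.0, limma 3.58.1 on log2 RPKM with pseudocounts of 1 and 0.1, other scalings and filters, loci with 1 transcript model, and leaving out each library. The fits were tested on simulated data.

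Named were, per comparison, up to 6 called members per direction with the largest change, at least 5 CPM and 1 sign in both genotypes, up to 5 hag1 to Col ratios per direction and stage, for 100 reads or more, the 8 highest by RPKM, members with a role, redox and pathway genes, members with opposite hag1 ratios, and tandem neighbours called in opposite directions. Members and lists were chosen with earlier results of these data known. Upstream bases were read from RefSeq TAIR10.1, where 25443 of 25451 loci overlap the gene of the same locus tag. Only 7832 loci have the identical start there, so a window can reach into the RefSeq gene. CLV3 was not analysed here.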

Additional observations from a re-analysis of the deposited data

Results flagged for a closer look

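For 6 members the hag1 to Col ratio was at least 2-fold above 1 at one stage and at least 2-fold below 1 at another, with both counting intervals clear of 1. There was 1 library per genotype and stage, so the difference between stages was not tested. CYP77B1 had a log2 ratio of 1.06 in roots and -1.63 after 2 days on SIM. CYP89A6 had -1.34 in roots and 1.39 after 2 days on SIM. CYP709B2 had -1.19 in roots, 1.81 after 2 days and -1.13 after 2 weeks on SIM. CYP71A12 had 2.00 after 2 days and -1.45 after 2 weeks, and CYP72A14 1.17 and -1.88. CYP94B3 had -1.07 in roots, 1.07 on CIM and -2.79 after 2 days on SIM.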

How the results depend on the processing

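No paired analysis was possible because the labels give no replicate numbers by which libraries could be paired. The stage and genotype terms themselves set hag1 against Col within stages. Hag1 against Col gave 0 calls with or without the stage term, but the 2 fits were unlike. Without that term 0 of 80 tested members had an unadjusted edgeR p below 0.05, against 26 of 103 with it. Over all genes 781 of 16825 had such a p without it, against 3845 of 18710 with it. Single-gene results that were called in the main fit were recomputed under the alternatives. Of these recomputed results, 1604 kept direction and side of the threshold, 440 fell out of the threshold and 0 reversed. Results not called in the main fit are not in these counts. As given above, omission of a library from a compared stage lowered the calls over all genes as well. Leaving out 1 library at a time gave 22 to 55 called members for CIM against roots, 0 to 2 for SIM 2 days against CIM, 3 to 24 for SIM 2 weeks against 2 days, 13 to 42 for SIM 2 weeks against roots and 0 to 0 for hag1 against Col over stages and for explants minus roots, where root libraries could not be left out. Calls of 20 of 52, 2 of 22 and 7 of 40 members held in every alternative for CIM against roots, SIM 2 weeks against 2 days and SIM 2 weeks against roots. SIM 2 days against CIM gave 6 calls without the low-count filter, 9 with DESeq2 and 1 with limma at either pseudocount, against 0. SIM 2 weeks against 2 days gave 39 with DESeq2 (25 rose, 14 fell), against 22. Over all genes DESeq2 called 3180 of 18710 there, against 2133 with edgeR. For hag1 against Col over stages there was 1 call without the filter and 13 with DESeq2, against 0. The matching counts over all genes, for this comparison and for SIM 2 days against CIM, are given above. Members 2-fold apart within a stage numbered 16 of 54 in roots, 4 of 39 on CIM and 9 of 45 after 2 weeks on SIM with at least 100 reads, and 19 of 68 on CIM with at least 20 reads, against 26 of 74, 11 of 48 and 22 of 60. The causes were not tested. With 1 library per group, members with few reads could not be compared within a stage at this depth.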
